A study of Mus musculus with 3 samples.

Results

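The miR-181 family was followed in small RNA libraries of mouse ovaries exposed to the plasticizer DEHP. Its members were chosen by name, as the mature miRNAs called miR-181 in a fixed list. Of the 7 miRNAs listed, 6 had a row among the 627 miRNAs of the count table: mmu-miR-181a-5p, mmu-miR-181b-5p, mmu-miR-181c-5p, mmu-miR-181d-5p, mmu-miR-181a-1-3p and mmu-miR-181c-3p. The remaining miRNA, mmu-miR-181a-2-3p, was not analysed here. The 3p arms miR-181b-1-3p and miR-181b-2-3p, which are not in the list, are given beside the members because they come from the same hairpins.

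The ovaries came from newborn CD1 mice and were kept in culture until postnatal day 3, the period in which germ cell cysts break down and primordial follicles form. Groups received DEHP at 0 μM (DMSO vehicle only), 10 μM or 100 μM. Ovaries of many mice were pooled, and 1 library was sequenced per concentration, so no difference has a replicate check and no p-value is given. Whole ovaries mix germ cells, somatic cells, vessels and blood, and fewer cells of a type cannot be told apart from less RNA per cell.

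A miRNA is cut from a hairpin precursor, whose arms give a 5p and a 3p mature miRNA, and pairs with target mRNAs mainly through its seed, a short stretch near its 5′ end. The miR-181 hairpins lie in the genome as pairs, each holding an a or c copy next to a b or d copy. The family is best known from lymphocytes, where miR-181a tunes signalling by the T cell receptor, and has also been studied in brain and blood vessels.

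The libraries held 5253367 counts at 0 μM, 5064602 at 10 μM and 5952274 at 100 μM. The 10 most abundant miRNAs took 45.4% of the counts at 0 μM, 45.6% at 10 μM and 70.5% at 100 μM. Counts were divided by median-of-ratios size factors (1.38, 1.35 and 0.546) to give normalized counts. Ratios are log2 values after adding 0.5 normalized counts, over the 587 miRNAs whose normalized counts averaged 10 or more, and were called beyond 2 in either direction. The 95% interval of a ratio was taken from the exact Clopper-Pearson interval for how the counts of both libraries split. Because PCR reads carried no molecular identifiers and need not be independent molecules, every interval and limit given here covers counting error only.

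The 5p miRNAs share 1 seed, and their sequences are shown because the comparison of miR-181c-5p with its seed relatives rests on them. They are written 5′ to 3′ from RefSeq on GRCm38.p6, with the seed (bases 2 to 8) in capitals.
mmu-miR-181a-5p: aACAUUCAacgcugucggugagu
mmu-miR-181b-5p: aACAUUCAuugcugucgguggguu
mmu-miR-181c-5p: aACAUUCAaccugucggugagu
mmu-miR-181d-5p: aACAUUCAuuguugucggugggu
No miRNA of the count table outside the list had this seed among the 529 of 627 names that matched a RefSeq sequence. The miR-181c-5p sequence equals that of miR-181a-5p with 1 base taken out, so that the first 10 and the last 12 bases are shared. Counted from 1 at the 5′ end of miR-181b-5p, it differs from miR-181d-5p by C12U and by 1 extra base at its 3′ end. Whether reads with a mismatch were allowed is not given in the sources used here, and counts of miRNAs as near to each other as these are uncertain where reads could be split between them.

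All 4 seed relatives were lower in the 100 μM library than in the other libraries, and miR-181c-5p was lowest against its own level at 0 μM. At 10 μM none of the 6 members was beyond 2, where 0.681% of all 587 miRNAs were. At 100 μM against 0 μM, 2 of 6 members were beyond 2, against 19.8% of all miRNAs. Both were below -2, where 9.37% of all miRNAs lay, and 0 members were above 2, where 10.4% lay. Below -1 were 4 of 6 members, the 5p miRNAs, against 25.7% of all miRNAs. At 100 μM against 10 μM, 2 members were below -2, against 8.69% of all. The median log2 ratio of the 6 members was -0.13 at 10 μM and -1.30 at 100 μM against 0 μM, beside 0.02 and -0.01 for all miRNAs tested. With total counts in place of size factors, the median of all miRNAs at 100 μM against 0 μM shifted by -1.52, and 4 members were beyond 2. The split of all miRNAs then moved from 55 below -2 and 61 above 2 to 213 below and 4 above, of 593 tested. With library totals without the 10 most abundant miRNAs, 3 members were beyond 2, and of 590 miRNAs tested 103 were below -2 and 28 above 2.

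**Figure D1:**
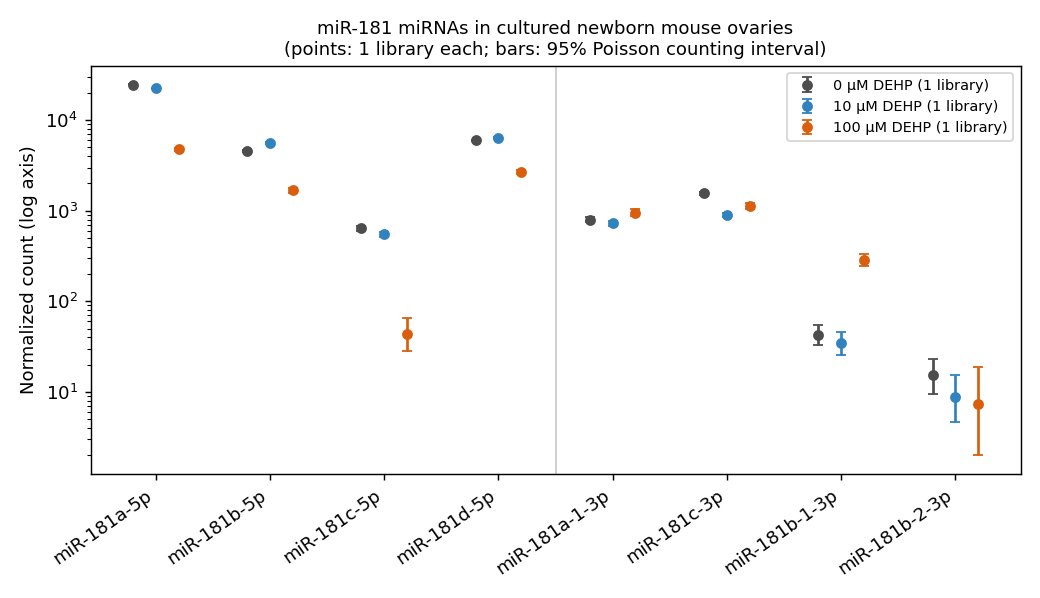
Normalized counts of the miR-181 miRNAs (vertical log axis) in the libraries of 0, 10 and 100 μM DEHP, with 5p miRNAs on the left and 3p miRNAs on the right. Each point is 1 library and each bar a 95% Poisson counting interval, and miR-181c-5p lies at 638 normalized counts at 0 μM and 44.0 at 100 μM.

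The most abundant member was miR-181a-5p, with 33988 counts at 0 μM, 30211 at 10 μM and 2617 at 100 μM. In normalized counts these were 24662, 22413 and 4794.5. The first values lie near each other and the last lies far below both. The log2 ratio was -0.14 (-0.16 to -0.12) at 10 μM and -2.36 (-2.42 to -2.31) at 100 μM against 0 μM, the latter -3.88 with total counts. Its rank by count among all 627 miRNAs was 35, 34 and 97 at 0, 10 and 100 μM.

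For miR-181b-5p, studied for its part in endothelial inflammation, counts were 6288, 7615 and 920 at 0, 10 and 100 μM. Normalized counts were 4563, 5649 and 1685. It was the member with the highest ratio at 10 μM and, like miR-181a-5p, stood lowest at 100 μM. The log2 ratios against 0 μM were 0.31 (0.26 to 0.36) and -1.44 (-1.54 to -1.34). The latter passed -2 with total counts (-2.95) and with library totals without the 10 most abundant miRNAs (-2.02). Its rank by count was 92, 78 and 152.

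The counts of miR-181d-5p, known as a regulator of a DNA repair enzyme in glioma, were 8234, 8629 and 1453. Normalized counts were 5975, 6402 and 2662. Here too the 0 and 10 μM libraries were close and the 100 μM library was low. The difference was the smallest of the 4 seed relatives, an order that a change of scaling leaves as it is. The log2 ratio was 0.10 (0.06 to 0.14) at 10 μM and -1.17 (-1.25 to -1.09) at 100 μM against 0 μM. With total counts the latter passed -2 (-2.68), and with library totals without the 10 most abundant miRNAs it was -1.75.

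The least abundant of the seed relatives, miR-181c-5p, which has been studied in brain and heart muscle, had 879, 739 and 24 counts. Normalized counts were 638 (95% Poisson interval 596 to 681), 548 (509 to 589) and 44.0 (28.2 to 65.4). With 0.5 normalized counts added to each, the 100 μM level was 14.4-fold lower than that at 0 μM, and the intervals of those libraries lie far apart. The log2 ratio was -0.22 (-0.36 to -0.08) at 10 μM and -3.84 (-4.51 to -3.28) at 100 μM against 0 μM. At 100 μM against 10 μM it was -3.63 (-4.29 to -3.06). Of the 587 miRNAs tested, 9 (1.53%) had a ratio this low or lower at 100 μM against 0 μM, and its rank by count was 221, 224 and 418. Since miR-181c-5p was singled out with earlier results of these data known, its low value is a description. With total counts the log2 ratio was -5.34.

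The 3p members behaved otherwise. For miR-181a-1-3p the counts were 1098, 985 and 522, or 797, 731 and 956 normalized counts. The log2 ratio at 100 μM against 0 μM was 0.26 (0.11 to 0.42), a sign that flips to -1.25 with total counts and to -0.32 with library totals without the 10 most abundant miRNAs. For miR-181c-3p the counts were 2139, 1215 and 621, or 1552, 901 and 1138 normalized counts. Its log2 ratio of -0.78 (-0.89 to -0.68) at 10 μM was the lowest of the 6 members in that comparison. At 100 μM against 0 μM it was -0.45 (-0.58 to -0.32), and -1.96 with total counts or -1.03 with library totals without the 10 most abundant miRNAs. At 100 μM against 10 μM it was 0.34 (0.19 to 0.48), which flips to -1.20 with total counts and to -0.28 with library totals without the 10 most abundant miRNAs.

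**Figure D2:**
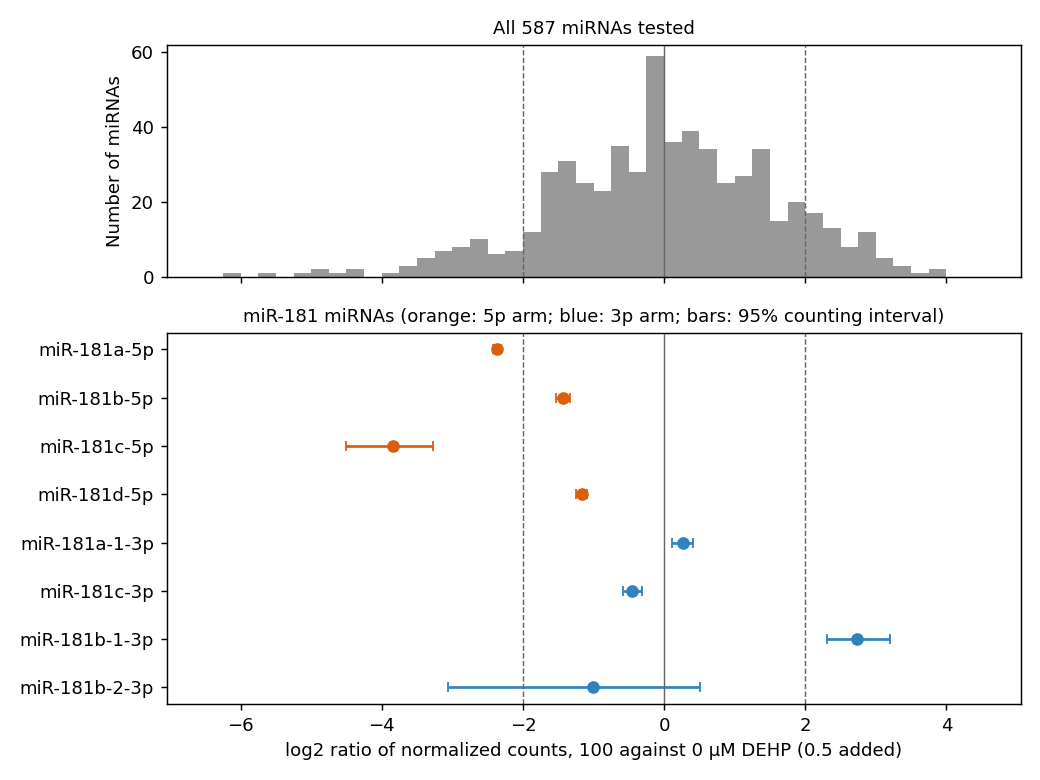
Log2 ratios of normalized counts at 100 against 0 μM DEHP for all 587 miRNAs tested (upper panel, number of miRNAs per bin) and for the miR-181 miRNAs (lower panel, points with 95% counting intervals, orange 5p and blue 3p). Dashed lines mark -2 and 2, and the 5p miRNAs lie between -3.84 and -1.17 while miR-181b-1-3p lies at 2.73, with the sign of miR-181a-1-3p flipping under total counts.

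A read covers a whole mature miRNA, so levels of different members were compared without division by length, although capture of each sequence into a library can differ. By level the order at 0 and 10 μM was miR-181a-5p, miR-181d-5p, miR-181b-5p, miR-181c-3p, miR-181a-1-3p and miR-181c-5p. At 100 μM the order of the members was the same, but miR-181c-5p also lay below miR-181b-1-3p. Poisson intervals of neighbours in this order did not overlap in any of the 3 libraries, and no spread over replicates could be set beside them. From 0 to 100 μM the gap between miR-181a-5p and miR-181d-5p shrank from 4.13-fold to 1.80-fold in counts.

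Taken as a pool, the 4 seed relatives held 49389 counts at 0 μM, 47194 at 10 μM and 5014 at 100 μM. This was 0.940%, 0.932% and 0.0842% of the library (Wilson 95% interval 0.0819% to 0.0866% at 100 μM). The pool was thus nearly level between 0 and 10 μM and low at 100 μM, with log2 ratios of normalized counts of -0.03 and -1.96 against 0 μM. Its composition, which needs no scaling between libraries, shifted as well. At 0, 10 and 100 μM the share of miR-181a-5p was 68.8%, 64.0% and 52.2%. The share of miR-181d-5p was 16.7%, 18.3% and 29.0%, and that of miR-181b-5p 12.7%, 16.1% and 18.3%. The pool at 100 μM was therefore poorer in the a and c miRNAs and richer in the b and d miRNAs than the pool at 0 μM. The share of miR-181c-5p was 1.78% (1.67% to 1.90%), 1.57% (1.46% to 1.68%) and 0.479% (0.322% to 0.711%).

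Changes of one member against another were measured within libraries, where the size factor cancels, with the exact conditional interval of the odds ratio. From 0 to 100 μM, miR-181c-5p changed against its locus partner miR-181d-5p by -2.69 on the log2 scale (-3.35 to -2.10), or from 0.107 to 0.0165 counts per count of miR-181d-5p. Against miR-181a-5p it changed by -1.50 (-2.15 to -0.91), and against miR-181b-5p by -2.42 (-3.08 to -1.83). The decrease of miR-181c-5p thus exceeded that of each seed relative beyond counting error. Of the other pairs, miR-181a-5p changed by -0.93 (-1.04 to -0.81) against miR-181b-5p and by -1.20 (-1.30 to -1.10) against miR-181d-5p. The pair nearest to a common change was miR-181b-5p against miR-181d-5p, at -0.27 (-0.40 to -0.14). From 0 to 10 μM, the change of miR-181c-5p against miR-181a-5p, -0.08 (-0.23 to 0.06), was within counting error. Against miR-181d-5p it was -0.32 (-0.47 to -0.17), and against miR-181b-5p it was -0.53 (-0.68 to -0.38), both beyond counting error.

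A spread of this size was not unusual for a seed family. The RefSeq sequences gave 16 families with at least 3 distinct sequences tested. Only 497 of the 587 miRNAs tested matched a sequence, so a family can lack tested members. Between its highest and lowest log2 ratio at 100 μM against 0 μM the miR-181 family spanned 2.68, the rank 7 of 16, where the median family spanned 2.54. At 10 μM against 0 μM it spanned 0.53, where the median family spanned 0.79. Its median of -1.90 was the lowest of the 16 families, and it was among the 4 families whose members were all below 0 under size factors. Shifting every ratio by the same amount leaves spans and the order of the medians as they are.

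The family sits at 3 loci, given here on GRCm38.p6 with annotation from GENCODE M21. Mir181a-1 (chr1:137966455-137966541) and Mir181b-1 (chr1:137966639-137966718) lie 97 bases apart on the plus strand in an intron of the long transcript Gm4258. Both overlap an exon of the lincRNA A430106G13Rik, and both lie opposite an intron of Gm26936. Mir181a-2 (chr2:38852735-38852810) and Mir181b-2 (chr2:38853830-38853918) lie 1019 bases apart on the plus strand, opposite an intron of Nr6a1, which encodes an orphan nuclear receptor known as germ cell nuclear factor, and Mir181b-2 also lies opposite an exon of the unclassified transcript Gm44144. Mir181d (chr8:84178716-84178787) and Mir181c (chr8:84178873-84178961) lie 85 bases apart on the minus strand. They lie in an intron of Nanos3 and on its strand, a gene whose RNA-binding protein is needed by primordial germ cells. The mature miR-181c-5p covers chr8:84178924-84178945 and miR-181d-5p covers chr8:84178759-84178781.

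Pairs of miRNAs from the same arm of hairpins within 10 kb on the same strand give a measure of how far neighbours differ. Over 534 such pairs the median difference between their log2 ratios was 1.64 at 100 μM against 0 μM and 0.36 at 10 μM against 0 μM. The difference of 2.68 between miR-181c-5p and miR-181d-5p was reached or passed by 135 pairs (25.3%). Their difference at 10 μM was 0.32. For miR-181a-5p and miR-181b-5p, each of which comes from both a chromosome 1 and a chromosome 2 hairpin, it was 0.93 at 100 μM, a size reached by 71.5% of pairs. Neighbours that differ as much as miR-181c-5p and miR-181d-5p were thus common in these libraries, with the limit that large clusters enter with many pairs that share miRNAs.

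The deposited table gives miR-181a-5p and miR-181b-5p a row for each of 2 precursors. The rows of miR-181a-5p were nearly the same, 33988, 30211 and 2617 counts in one and 33984, 30211 and 2617 in the other. The rows of miR-181b-5p held 6288, 7615 and 920 counts and 5790, 7080 and 845 counts, so that the lower row was 92.1%, 93.0% and 91.8% of the higher. Their log2 ratios at 100 μM against 0 μM were both -1.44. Of 79 miRNAs with several rows, 52 had rows within 1% of each other and 62 within 10%. Since the mature sequence is the same in both precursors, the rows cannot tell which locus the 5p reads came from. The hairpins are shown because they let a reader see what the precursors share around the mature miRNA, with the 5p miRNA in capitals, 5′ to 3′, from RefSeq on GRCm38.p6.
Mir181a-1: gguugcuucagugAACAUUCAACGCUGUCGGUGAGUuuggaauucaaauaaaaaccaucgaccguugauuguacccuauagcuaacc
Mir181a-2: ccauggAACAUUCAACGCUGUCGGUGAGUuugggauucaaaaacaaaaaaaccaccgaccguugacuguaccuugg
Mir181b-1: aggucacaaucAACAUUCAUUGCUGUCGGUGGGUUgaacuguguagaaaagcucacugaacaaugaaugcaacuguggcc
Mir181b-2: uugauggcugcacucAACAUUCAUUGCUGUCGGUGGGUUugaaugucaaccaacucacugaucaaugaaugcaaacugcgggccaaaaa
Next to the capitals, Mir181a-1 and Mir181a-2 share 1 base before and 4 bases after, whereas Mir181b-1 and Mir181b-2 share 2 bases before and 0 after.

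The 3p arms do differ between the loci. Their sequences are shown because each belongs to 1 hairpin, although they are near enough to each other that the assignment of 3p reads is uncertain if mismatches were allowed, again with bases 2 to 8 in capitals and from RefSeq on GRCm38.p6.
mmu-miR-181a-1-3p: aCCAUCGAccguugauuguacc
mmu-miR-181a-2-3p: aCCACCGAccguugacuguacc
mmu-miR-181c-3p: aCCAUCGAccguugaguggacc
mmu-miR-181b-1-3p: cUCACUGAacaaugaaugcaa
mmu-miR-181b-2-3p: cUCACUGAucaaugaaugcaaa
The seed is shared by miR-181a-1-3p and miR-181c-3p, which come from different chromosomes and differ by U16G and U19G, counted from 1 at the 5′ end of miR-181a-1-3p. It is another seed than that of the 5p arms. Another seed again is shared by the Mir181b 3p arms, which differ by A9U and by 1 extra base at the 3′ end of miR-181b-2-3p.

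The Mir181b 3p arms were rare at 0 μM. For miR-181b-1-3p the counts were 59, 47 and 157 at 0, 10 and 100 μM, or 42.8, 34.9 and 288 normalized counts. It was higher at 100 μM than in both other libraries, with a log2 ratio of 2.73 (2.31 to 3.21) against 0 μM, and 1.23 with total counts. For miR-181b-2-3p the counts were 21, 12 and 4. Its log2 ratio of -1.01 (-3.06 to 0.51) at 100 μM against 0 μM was within counting error under size factors, but not with total counts, where it was -2.42 (-4.58 to -1.01). In the chromosome 1 pair, miR-181a-1-3p changed by -2.48 (-2.97 to -2.01) against miR-181b-1-3p from 0 to 100 μM within libraries. The 3p arms of this pair thus differed about as much as the 5p arms of the chromosome 8 pair, and 28.7% of neighbouring pairs differed at least as much.

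Within 3 of the 4 hairpins that had both arms in the table, the log2 change of the 5p against the 3p miRNA from 0 to 100 μM was below -2, as it was in 20.2% of all 173 hairpins measured. For Mir181c, miR-181c-5p had 0.411 counts per count of miR-181c-3p at 0 μM, 0.608 at 10 μM and 0.0386 at 100 μM. The log2 change within libraries was 0.57 (0.39 to 0.74) from 0 to 10 μM and -3.41 (-4.07 to -2.81) from 0 to 100 μM. The ratio was thus highest at 10 μM and lowest at 100 μM. For miR-181a-5p against miR-181a-1-3p, the ratios in the order of concentration were 31.0, 30.7 and 5.01, a log2 change of -2.63 (-2.79 to -2.46) from 0 to 100 μM. For miR-181b-5p against miR-181b-1-3p the log2 change from 0 to 100 μM was -4.18 (-4.65 to -3.73). Against miR-181b-2-3p it was -0.38 (-1.95 to 1.63), within counting error. The 5p reads of the a and b miRNAs can come from either locus, so of these values that of Mir181c is the one in which both miRNAs are named for 1 hairpin.

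Many hairpins of these libraries shifted between their arms. Over the 173 hairpins with both arms tested, the median change of the 5p against the 3p ratio from 0 to 100 μM was -0.29, with quartiles at -1.56 and 1.21. Some hairpins share mature miRNAs, such as Mir9-1, Mir9-2 and Mir9-3, so not all 173 are separate measurements. A change below -2 was found in 35 hairpins, and a change above 2 in 25. Mir181b-1 was among the 9 hairpins with the lowest values, Mir181c among the lowest 15 and Mir181a-1 among the lowest 21. From 0 to 10 μM, 1 hairpin was below -2 and 2 were above 2, with quartiles at -0.41 and 0.43.

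**Figure D3:**
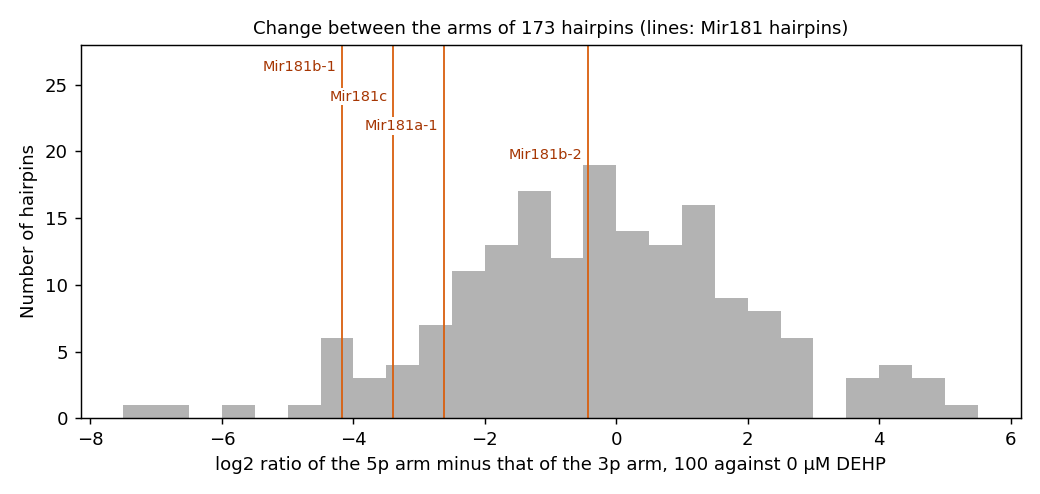
Number of hairpins (vertical axis) by the change of the log2 ratio of the 5p arm minus that of the 3p arm at 100 against 0 μM DEHP, for 173 hairpins with both arms tested. Orange lines mark Mir181b-1 at -4.17, Mir181c at -3.40, Mir181a-1 at -2.63 and Mir181b-2 at -0.43, and differ slightly from the changes computed from counts because 0.5 normalized counts were added.

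The chromosome 8 pair has other miRNA hairpins within 50 kb: Mir23a, Mir27a and Mir24-2 on the opposite strand and Mir3074-2 on the same strand, at distances between 29.6 and 30.0 kb. Of the 6 miRNAs listed from Mir23a, Mir27a and Mir24-2, 5 had a row and 0 were beyond 2 at 10 or 100 μM against 0 μM, where 0.681% and 19.8% of all miRNAs were. With total counts 3 of the 5 were below -2 at 100 μM against 0 μM, where 35.9% of all miRNAs then lay. Their median log2 ratio was -0.04 at 10 μM and -0.58 at 100 μM. The most abundant, miR-24-3p, which also comes from the hairpin Mir24-1 and so is not specific to these neighbours, had 25437, 26940 and 6734 counts. Its log2 ratio at 100 μM against 0 μM was -0.58, and -2.10 with total counts. For miR-27a-3p this ratio was -1.21 (-2.73 with total counts), and for miR-24-2-5p it was -1.13 (-2.65). For miR-23a-3p it was 0.77 and for miR-27a-5p 1.10, and both flip with total counts, to -0.74 and -0.41. On the strand of Mir181c, miR-3074-5p had 51, 30 and 6 counts and a log2 ratio of -1.71 (-3.15 with total counts). Its name carries no hairpin number, and whether it is specific to Mir3074-2 was not tested. None of these neighbours had a ratio as low as miR-181c-5p, an order that a change of scaling leaves as it is. The miRNAs of the opposite strand lay on both sides of 0 under size factors and all below 0 with total counts.

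Among 367 other miRNAs averaging 100 or more normalized counts, those most like miR-181c-5p were found by the distance between their pairs of log2 ratios (10 and 100 μM against 0 μM). The nearest was miR-301a-5p, with 318, 246 and 10 counts and a distance of 0.254. It was followed by miR-19a-3p (0.593), miR-143-5p (0.804), miR-19b-3p (0.835) and miR-126a-5p (0.859). Nearest to miR-181a-5p were miR-154-5p (0.112), miR-20a-5p (0.146) and miR-34a-5p (0.159). These distances rest on 3 libraries and say nothing of shared function or control.

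Marker miRNAs of cell types in which the family is known, or which an ovary may hold, are given beside these values. Both endothelial markers had a row. They are the 5p and 3p arms of miR-126a and so not separate markers. Their summed normalized counts were 46169.8 at 0 μM, 52252 at 10 μM and 9855 at 100 μM. Both were below -2 at 100 μM against 0 μM, where 9.37% of all miRNAs lay, the most abundant, miR-126a-3p, at -2.12 and miR-126a-5p at -3.12. With total counts they were at -3.64 and -4.64, where 35.9% of all miRNAs were below -2. Both arms of miR-126a thus moved in the same direction as the 5p members of the family, and their part in the result was not tested. All 7 markers of blood and lymphoid cells had a row, 6 passed the minimum, and 0 were beyond 2 at 100 μM against 0 μM, where 19.8% of all miRNAs were. Their median log2 ratio was -0.21. Their values were not alike, since miR-155-5p was at -0.15 whereas miR-142a-3p was at -1.98 and miR-142a-5p at -1.65. Both arms of miR-142a passed -2 with total counts (-3.43 and -3.14) and without the 10 most abundant miRNAs (-2.54 and -2.22), and their part in the result was not tested. The summed normalized counts of the 7 markers were 510.1, 468 and 377, and the most abundant was miR-155-5p with 221, 199 and 79 counts.

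The gonad markers, miR-202-5p and miR-202-3p, were both present, with summed normalized counts of 31188, 40382 and 19964, and the most abundant was miR-202-5p. Their log2 ratios at 100 μM against 0 μM lay on opposite sides of 0, at -0.74 for miR-202-5p and 0.78 for miR-202-3p, and with total counts the former passes -2 (-2.26) and the latter flips to -0.74. All 10 germ cell markers had a row, 3 were above 2 and 0 below -2 at 100 μM against 0 μM, where 10.4% and 9.37% of all miRNAs lay. With total counts 0 were above 2 and 2 were below -2, beside 4 and 213 of all 593 miRNAs tested, and 7 of 10 were below 0, in place of 3 of 10. The sums were 56396, 47204 and 361311 normalized counts, and 312245 of the last was miR-881-3p. Its log2 ratio was 3.18, and 1.67 with total counts, whereas miR-743a-3p was at -1.08, miR-290a-5p at -0.69 and miR-293-3p at -0.17. The germ cell markers thus had no common direction, and their part in the result was not tested. Of 3 markers of brain and neurons, 2 had a row, and miR-124-3p was not analysed here. The sums were 1242, 1264 and 1323, with miR-128-3p the most abundant. The log2 ratio of miR-9-5p at 100 μM against 0 μM was 0.37, which flips to -1.15 with total counts and to -0.21 with library totals without the 10 most abundant miRNAs, and that of miR-128-3p was -0.14 (-1.65 with total counts). All 3 muscle markers had a row and 2 passed the minimum, with sums of 284, 214 and 480.0 and miR-1a-3p the most abundant. At 100 μM against 0 μM the log2 ratio of miR-1a-3p was 0.84, which flips to -0.67 with total counts, and that of miR-206-3p was -1.31, which passes -2 with total counts (-2.72). No listed marker with a row had 0 counts in any library.

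Features of the mature sequence were set beside the ratios for the 497 miRNAs tested that matched a RefSeq sequence. The seed relatives are 22 to 24 bases long, start with A and end with U. The median log2 ratio at 100 μM against 0 μM was -0.06 for the 283 miRNAs of 22 bases, the length of miR-181c-5p. It was -0.53 for the 80 of 23 bases, the length of miR-181a-5p and miR-181d-5p, and 0.46 for the 16 of 24 bases, the length of miR-181b-5p. It was -0.17 for the 133 that start with A and -0.17 for the 179 that end with U. For the 112 with a GC content between 43% and 48%, the range that holds the 4 seed relatives, it was -0.21. The median of the 4 seed relatives was -1.90, and the part of sequence features in the result was not tested.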

How the data were processed

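Small RNA of pooled cultured ovaries was sequenced as 1 library per DEHP concentration. The authors trimmed the reads, aligned them with bowtie2 and counted miRNAs with miRDeep2. The deposited values are whole-number counts, not normalized, for each pair of mature miRNA and precursor. The submitters' processing notes name mm10 and DESeq2, and versions are not given in the sources used here. The table has 961 rows for 627 miRNAs, and the row with the highest total was kept for each. In R 4.3.3, DESeq2 1.42.0 gave the size factors and edgeR 4.0.16 the TMM and upper-quartile factors, and the remaining steps ran in Python 3.11.15. The limit of 3 counts corresponds to 5.50 normalized counts at 100 μM.

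Named were all members, miRNAs of the same seed, miRNAs of hairpins within 50 kb, the 5 miRNAs most like miR-181c-5p and the 3 most like miR-181a-5p, and the marker lists. The 3p arms of Mir181b fell under the rule on hairpins within 50 kb. The members and lists were chosen with earlier results of these data known. Sequences and hairpin positions came from RefSeq on GRCm38.p6, the assembly that mm10 also names, and overlapping genes from GENCODE M21. Alternatives were other scalings, 1 normalized count added, other minimums, a threshold of 1, and summed or lowest precursor rows. The scripts were tested on simulated data.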

Additional observations from a re-analysis of the deposited data

How the results depend on the processing

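The 8 alternatives that change ratios gave 201 values of the miR-181 miRNAs, of which 166 lay within the counting interval of the reported value and 35 did not. Signs changed in 6 values, those of miR-181a-1-3p and miR-181c-3p under total counts and under library totals without the 10 most abundant miRNAs. No ratio beyond 2 changed its sign. With total counts the log2 ratio of miR-181c-5p at 100 μM against 0 μM was -5.34. Members beyond 2 then numbered 4 at 100 μM against 0 μM and 4 against 10 μM, in place of 2 and 2, and against 10 μM 226 of 593 miRNAs were below -2 and 8 above 2. Without the 10 most abundant miRNAs in the totals they numbered 3 and 3, and against 10 μM 99 of 590 miRNAs were below -2 and 33 above 2. With a threshold of 1 they numbered 4 and 4 of 6, while of all 587 miRNAs 151 were below -1 and 157 above 1 against 0 μM, and 145 and 173 against 10 μM. The median of all miRNAs shifted with total counts by -1.52 against 0 μM and -1.53 against 10 μM, and without the 10 most abundant miRNAs by -0.58 and -0.63. With a minimum of 100 it shifted by 0.12 against 0 μM. The changes of miR-181c-5p against miR-181d-5p, miR-181a-5p and miR-181c-3p need no scaling, so other scalings were not run for them. They stayed within their intervals with 1 normalized count added and with summed or lowest precursor rows. The choice of precursor rows left the changes against miR-181d-5p and miR-181c-3p identical, so it is no check of these. No library could be left out with 1 per concentration. No paired analysis was possible because each concentration has 1 library. The 24 counts of miR-181c-5p at 100 μM limit the precision of each ratio that uses them.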
